A study of Mus musculus with 12 samples.

Results

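The 37 genes described here build, regulate or export cholesterol and fatty acids, and they were followed in AML12 mouse hepatocytes exposed to copper, to a bile acid or to both. They were chosen by symbol from the 24824 genes of the deposited expression table. They comprised 7 genes of the mevalonate arm of sterol synthesis, 11 genes of the steps from squalene to cholesterol, the sterol carrier Stard4, 5 genes that encode or control sterol regulatory element-binding proteins (SREBPs), 9 genes of fatty acid synthesis and 4 genes of the liver X receptor (LXR) and cholesterol efflux group. The first 2 sets together are called the 18 sterol enzymes. In all, 35 genes had a mean of at least 1 FPKM over the libraries and were tested. Abca1 and Nr1h3 were below that level and are given as values.

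AML12 is an immortalized mouse hepatocyte line, grown in medium that contains serum, insulin, transferrin and selenium. All cells carried the wild-type genotype according to the labels. Group A stayed in standard medium. Group B received 300 μM CuCl2 with 40 nM elesclomol (Cu/ES), a compound that carries copper into cells. Group C received the same Cu/ES with 1000 μM taurocholic acid (TCA), a conjugated bile acid, and group D received 1000 μM TCA alone. All groups were collected at 24 h, with 3 libraries each. The study set these groups against each other to see how copper overload alters transcription and what TCA adds to it. Nothing in the labels says whether the libraries of a group came from separate cultures, so p-values measure the spread between these libraries, which may be technical.

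Cholesterol is built from acetyl-CoA through mevalonate, isoprenoids, squalene and lanosterol. When membrane sterol is low, the escort protein SCAP carries SREBPs to the Golgi apparatus for cleavage, and the freed factor enters the nucleus. When sterol is high, INSIG proteins hold the complex back. SREBP2, encoded by Srebf2, mainly drives sterol genes, whereas SREBP1, encoded by Srebf1, mainly drives fatty acid genes. LXRs sense oxysterols and drive the efflux transporters Abca1 and Abcg1 as well as Srebf1. In liver these routes supply membranes, lipoproteins and bile acids.

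Library totals recovered from the FPKM values ranged from 29115011 to 39782142 reads, and they were lower in groups B and C (29115011 to 34912748) than in groups A and D (38298857 to 39782142). The hepatocyte label was only partly borne out by marker genes. Of 11 hepatocyte markers listed, 8 were analysed here, and Alb, Apob, Trf and Hnf4a stayed below 1 FPKM in every library. Krt8 ranged from 113 to 401 FPKM and Foxa2 from 1.38 to 6.39 FPKM, and both were lower with Cu/ES. Krt18 was lower as well (69.1 to 92.7 with Cu/ES against 263 to 309 FPKM without treatment). Apoa1 went the other way, with 1.18 to 2.44 FPKM with Cu/ES against 0 to 0.0259 without treatment. Trf was also higher with Cu/ES, at 0.418 to 0.898 against 0 to 0.0112 FPKM. Of 5 bile duct cell markers, Krt7 and Epcam stayed below 1 FPKM, and the sum ranged from 920 to 1004 FPKM without treatment, from 1240 to 1404 with Cu/ES, from 735 to 950 with Cu/ES and TCA and from 743 to 790 with TCA. Within that sum Krt19 was lower with Cu/ES than without treatment (64.1 to 88.7 against 223 to 313 FPKM), while Spp1 was higher (1106 to 1293 against 652 to 690 FPKM) and so was Sox9 (47.1 to 54.3 against 7.44 to 12.3 FPKM). Of 5 macrophage and leukocyte markers 4 were analysed here, with Ptprc and Adgre1 at or near 0, and their sum, nearly all of it Cd68, ranged from 72.5 to 102 FPKM without treatment and from 24.1 to 37 FPKM over the other groups. Summed over 6 stellate cell and fibroblast markers, the level ranged from 2119 to 2339 FPKM without treatment, from 298 to 354 with Cu/ES, from 154 to 196 with Cu/ES and TCA and from 1814 to 1936 with TCA, with Vim making up most of it. Summed over 4 endothelial markers, of which Stab2 was at or near 0, it ranged from 0.922 to 1.16 FPKM without treatment, from 6.79 to 10.5 with Cu/ES, from 16.5 to 19.7 with Cu/ES and TCA and from 0.865 to 1.25 with TCA. Most of this sum in groups B and C was Pecam1 (5.31 to 9.55 and 14 to 18.2 FPKM, against 0.165 to 0.285 in group A). Cdh5 overlapped between groups A and B (0.63 to 0.899 and 0.642 to 1.11 FPKM), and Kdr stayed below 1 FPKM. The part of these marker changes in the results below was not tested. In bulk RNA, fewer cells of one kind and less RNA per cell cannot be told apart.

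The library numbered 2 stood apart in every group. Its reads differed from those of the other 2 libraries by a chi-square of 19.1 to 56.7 per gene, against 6.14 to 10.3 between those 2. Library C2 was the farthest, and it held the lowest group C value of Sqle, Msmo1, Sc5d, Scd2 and Fasn. Counts over the 35 genes are also given without these 4 libraries.

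Promoter sequence is shown for 3 sterol genes, picked as examples that differed in motifs and in response. Hmgcs1, which encodes the cytosolic synthase of the mevalonate arm, was the only member found to contain the classical sterol regulatory element TCACNCCAC. Msmo1, a demethylase of the late pathway, kept a high level under Cu/ES. Acat2 condenses acetyl-CoA at the entry of the pathway. Of the 35 genes it had the largest fall in group B vs. A on the log2(FPKM + 1) scale, though not in every scaling. The 250 bases before each gene start are taken from RefSeq for GRCm38.p6, whereas the submitters' processing notes name GRCm39, and they are written in the direction of the gene. Capitals mark TCACNCCAC and CCAAT on either strand (ATTGG when on the other strand), and the motifs did not overlap in these stretches. The regions are chr13:119690101-119690350 on the plus strand for Hmgcs1, chr8:64733579-64733828 on the minus strand for Msmo1 and chr17:12960726-12960975 on the minus strand for Acat2.
Hmgcs1: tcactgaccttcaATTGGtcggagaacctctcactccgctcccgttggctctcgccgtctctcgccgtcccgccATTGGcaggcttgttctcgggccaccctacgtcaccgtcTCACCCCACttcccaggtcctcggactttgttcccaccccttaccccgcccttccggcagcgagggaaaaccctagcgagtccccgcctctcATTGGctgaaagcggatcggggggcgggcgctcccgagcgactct
Msmo1: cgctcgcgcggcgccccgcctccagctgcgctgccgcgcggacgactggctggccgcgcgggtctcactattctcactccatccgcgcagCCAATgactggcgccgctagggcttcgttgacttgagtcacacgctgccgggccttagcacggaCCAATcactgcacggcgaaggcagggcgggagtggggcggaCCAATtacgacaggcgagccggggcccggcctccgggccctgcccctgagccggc
Acat2: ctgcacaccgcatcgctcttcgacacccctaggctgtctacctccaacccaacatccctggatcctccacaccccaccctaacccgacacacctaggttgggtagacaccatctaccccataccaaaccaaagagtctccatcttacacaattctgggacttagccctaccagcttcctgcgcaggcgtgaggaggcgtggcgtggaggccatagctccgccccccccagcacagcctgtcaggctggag

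In the Hmgcs1 stretch, CCAAT motifs began 237, 176 and 45 bases before the gene start, and in the Msmo1 stretch they began 160, 96 and 55 bases before it. The Acat2 stretch held none of these motifs. CCAAT is the letters bound by NF-Y, a factor known to act with SREBPs. RefSeq promoters of 300 bases (250 before and 50 after the start) were matched for 29 of the 37 genes. CCAAT was present on either strand in 14 of the 15 matched sterol enzymes (93.3%), in 3 of the 6 matched fatty acid genes (50%) and in 41.1% of the 27025 genes with such a promoter. TCACNCCAC was present in 1 of the 29 (3.45%) and in 1.44% of all genes. The E-box CACGTG was present in 7 of the 29 (24.1%) and in 8.09% of all genes. The LXR repeat, AGGTCA followed after 4 bases by another AGGTCA, was present in 0 of the 29 and in 0.0148% of all genes. These are matches of letters in a short window and not measured binding sites. The 14 sterol enzymes with CCAAT did not respond alike in B vs. A. Among them, Mvk (5 sites in the 300 bases) and Nsdhl (4) were called lower in all 5 scalings. Hmgcs1 (4 sites) and Msmo1 (3) were not. Whether motifs relate to the responses was not tested.

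**Figure D1:**
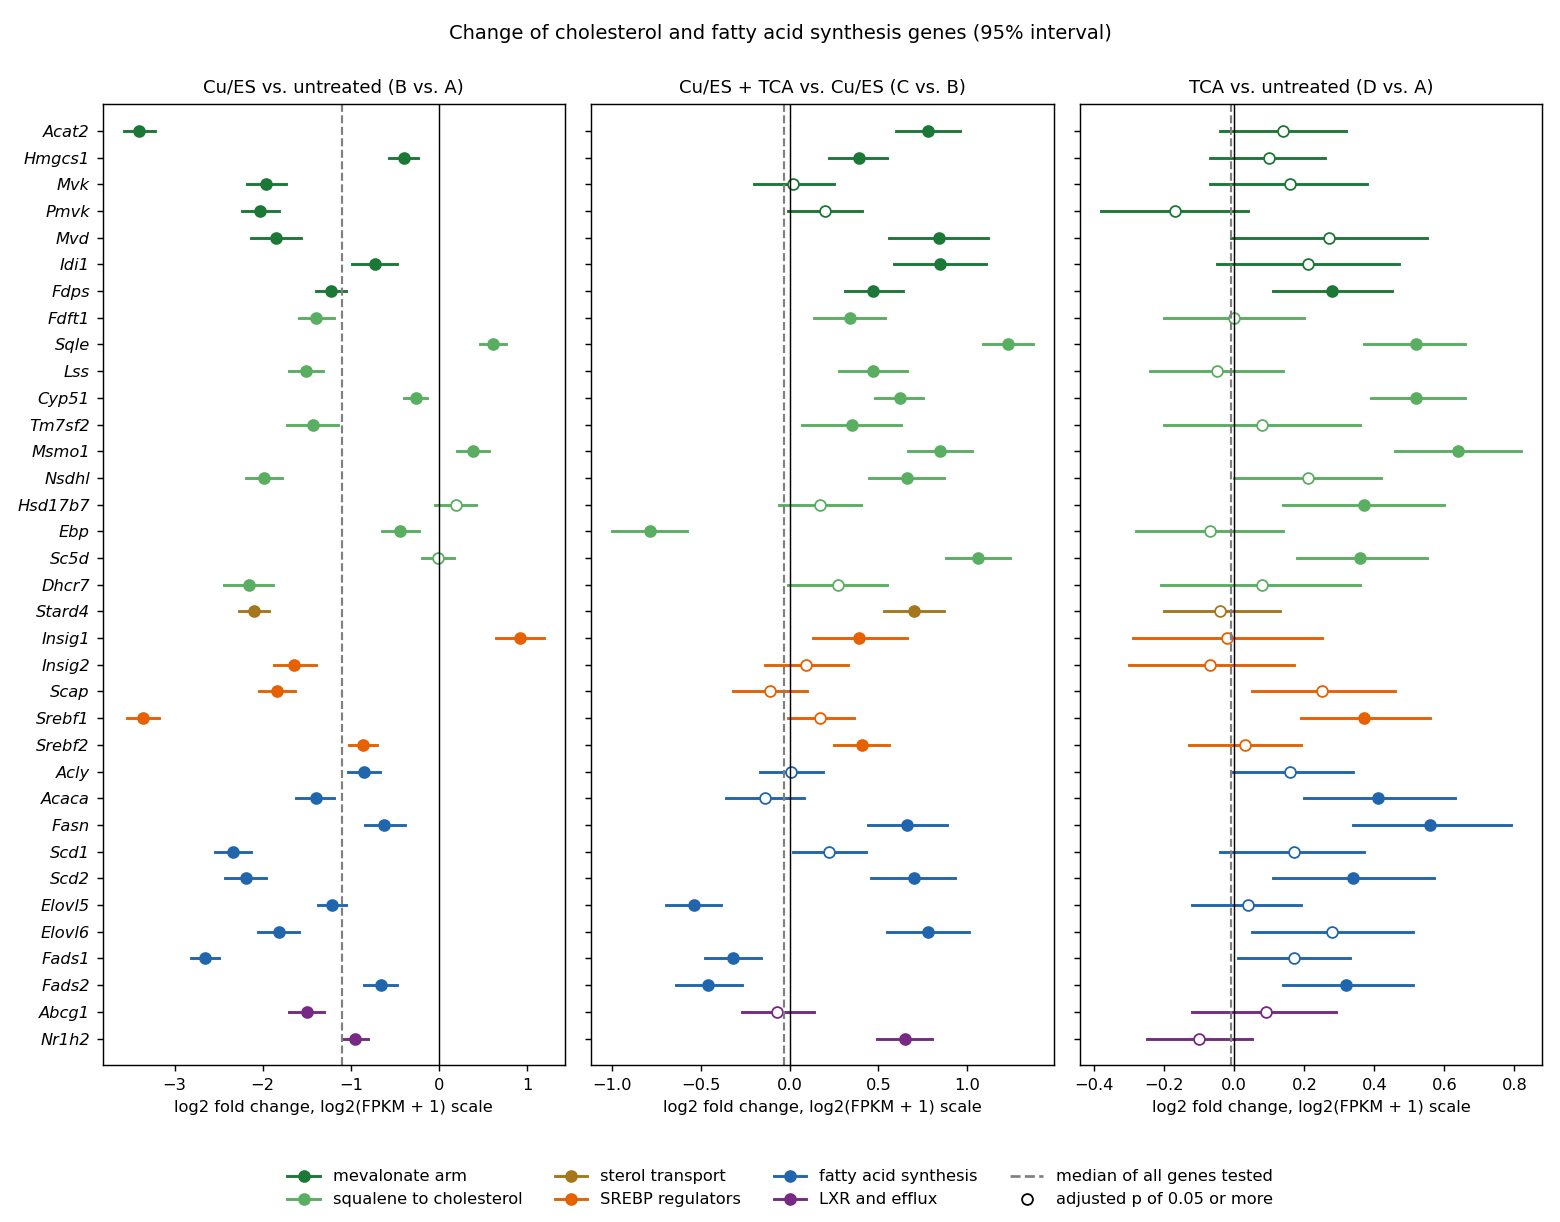
Log2 fold change on the log2(FPKM + 1) scale (horizontal axis) for the 35 tested genes (rows, coloured by group of genes) with its 95% interval, in 3 panels (B vs. A, then C vs. B, then D vs. A). Filled points passed an adjusted p of 0.05, open points did not, and the dashed line is the median of all genes tested. In B vs. A most genes lie left of 0 and around the dashed line at -1.10, whereas in C vs. B 20 genes lie right of 0 with a filled point.

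The first comparison asked what Cu/ES did to these genes (group B vs. A). In FPKM, 30 of the 35 genes were lower, 3 were higher (Sqle, Msmo1 and Insig1) and 2 did not pass an adjusted p of 0.05, Hsd17b7 and Sc5d. All genes tested shifted the same way: 72.0% of 10615 were called lower and 20.1% higher, and the median log2 fold change was -1.10 over all genes and -1.40 over the 35. With an absolute log2 fold change above 1 also required, 21 of the genes were lower and 0 were higher, against 53.0% and 10.1% of all genes. Without the 4 libraries numbered 2, an alternative chosen after the data were seen, 30 were lower and 4 were higher, and with the fold required, 21 and 1. Leaving out library A2 alone also gave 1 higher gene past both thresholds. The counts of lower genes in B vs. A and C vs. D, here and across scalings, include Mvk and Abcg1, which were under 1 FPKM on average in groups B and C and so passed the filter only by being high in groups A and D.

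The size of this general shift depended on the scaling of the libraries. The median of all genes was -1.56 in TPM, which rescales FPKM to a fixed sum, 0.01 after median-ratio scaling, -0.10 after quantile normalization and -0.13 with limma-voom on recovered reads. The split of all genes followed it, from 2138 higher and 7639 lower in FPKM to 4670 higher and 4654 lower after median-ratio scaling. Of the 35 genes, 16 were called lower in all 5 scalings, 2 were called higher in all 5 (Sqle and Insig1), 10 were called in opposite directions by different scalings, and 7 passed in some scalings only. The direction of the 10 genes, and of any sentence on them below, therefore holds only for the scaling named.

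**Figure D2:**
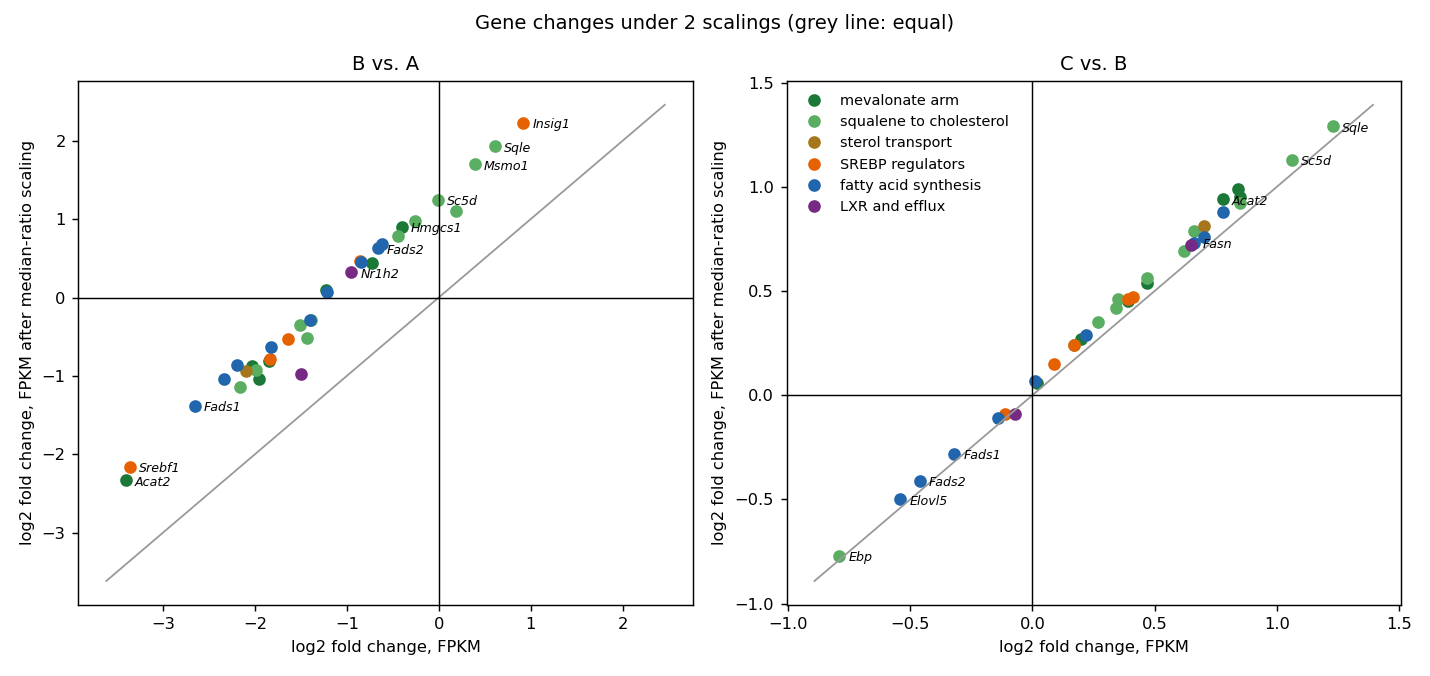
Log2 fold change in FPKM (horizontal axis) against the same value after median-ratio scaling (vertical axis) for the 35 genes, in B vs. A (left) and C vs. B (right), with the grey line marking equal values. In B vs. A all points lie above the line, and 12 genes, among them Hmgcs1, Sc5d, Fads2 and Nr1h2, lie above 0 on the vertical axis only. In C vs. B the points lie close to the line.

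Among genes of the mevalonate arm, 7 of 7 were called lower in FPKM in B vs. A, with a median of -1.85. Over all genes tested, 72.0% were called lower, with a median of -1.10. Acat2 had 23.1, 27.1 and 23.7 FPKM in group A, against 1.53, 1.35 and 1.36 in group B. Every group B library lay far below every group A library, with a log2 fold change of -3.40 ± 0.08 (SE; limma, adjusted p = 1.48e-13), and of -2.33 after median-ratio scaling. Part of Acat2 is uncertain, since 35.3% of its 100-base stretches in the GENCODE transcripts also occur in Acat3. Mvk and Pmvk, the kinases that phosphorylate mevalonate, and Mvd, which turns its product into isopentenyl diphosphate, were lower in all 5 scalings. Pmvk went from 16.5, 16.5 and 16.6 FPKM to 2.61, 3.58 and 3.73, with a log2 fold change of -2.03 ± 0.10 (limma, adjusted p = 5.89e-11). Mvk was at 0.677 to 1.06 FPKM in group B, and with a group mean under 1 FPKM in groups B and C it passed the filter through groups A and D.

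Hmgcs1, Idi1 and Fdps, unlike the rest of the arm, were not called lower in all 5 scalings. Hmgcs1 had 43.0, 43.2 and 37 FPKM in group A, against 30.6, 30.5 and 31.1 in group B, with no overlap. The log2 fold change was -0.40 ± 0.08 in FPKM (limma, adjusted p = 1.80e-04), 0.90 after median-ratio scaling (adjusted p = 1.85e-08) and 0.02 after quantile normalization (adjusted p = 0.821), so its direction was set by the scaling. Idi1, the isomerase that follows, was lower in FPKM (-0.73 ± 0.12) and higher after median-ratio scaling (0.44), and 20% of its stretches are shared with 2 other gene models. Fdps, which makes farnesyl diphosphate, was lower in FPKM (-1.23 ± 0.08) with 0.10 after median-ratio scaling (adjusted p = 0.302), and 26.7% of its exon bases overlap another gene model on the same strand. The ratio of 2 genes within a library is unaffected by any single factor per library, as in TPM or median-ratio scaling, although quantile normalization can alter it. The ratio of Hmgcs1 to Acat2 was 1.67 ± 0.163 (SD, n = 3) in group A, 21.8 ± 1.59 with Cu/ES, 12.9 ± 1.61 with Cu/ES and TCA and 1.61 ± 0.114 with TCA, and groups B and C overlapped neither each other nor the others.

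Between squalene and cholesterol, 7 of 11 genes were called lower in FPKM in B vs. A, 2 were called higher and 2 did not pass. The shares of all genes tested were 72.0% lower and 20.1% higher. Sqle, squalene epoxidase and a rate-limiting enzyme of the pathway, had 50.9, 46.3 and 47.8 FPKM in group A, against 74.5, 76.4 and 72.5 in group B. All group B libraries were higher, by 0.61 ± 0.07 on the log2 scale (limma, adjusted p = 4.58e-07), and Sqle was called higher in all 5 scalings. Msmo1 had 45.0, 42.5 and 49.8 FPKM in group A, against 61.9, 57.3 and 61 in group B. It was higher in FPKM (0.39 ± 0.08, limma, adjusted p = 5.51e-04), with a log2 fold change of 0.02 in TPM (adjusted p = 0.829). Sc5d, a desaturase of the last steps, had 16.6, 18.7 and 15.8 FPKM in group A, against 16.9, 16.7 and 17.0 in group B. These libraries overlapped in FPKM (-0.01, 95% interval -0.19 to 0.17), while median-ratio scaling called Sc5d higher (1.25) and TPM called it lower (-0.37).

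Cyp51, which demethylates lanosterol, had 14.1, 13.6 and 13.7 FPKM in group A, against 10.8, 11.6 and 11.7 in group B. It was lower in FPKM (-0.26 ± 0.06, limma, adjusted p = 1.26e-03) and higher after median-ratio scaling (0.97). Ebp, the sterol isomerase, was likewise lower in FPKM (-0.44 ± 0.10) and higher after median-ratio scaling (0.78). Lss, which closes lanosterol, Nsdhl, a C4 decarboxylase, and Dhcr7, which performs the final reduction, were lower in all 5 scalings. Nsdhl went from 9.04, 10.8 and 9.71 FPKM to 1.47, 2.04 and 1.73 (log2 fold change -1.99 ± 0.10), and Dhcr7 from 9.49, 10.4 and 8.53 FPKM to 1.31, 1.32 and 1.40 (-2.16 ± 0.13). Fdft1, which makes squalene, and Tm7sf2, a sterol reductase, were lower in FPKM (-1.39 ± 0.09 and -1.43 ± 0.13) and did not pass after quantile normalization (-0.01 and -0.05). Of the exon bases of Fdft1, 18.3% lie opposite Ctsb, so reads of the 2 genes may not be fully separated without strand. Hsd17b7 ranged from 1.85 to 2.44 FPKM in group A and from 2.27 to 2.67 in group B (0.19, 95% interval -0.04 to 0.42).

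**Figure D3:**
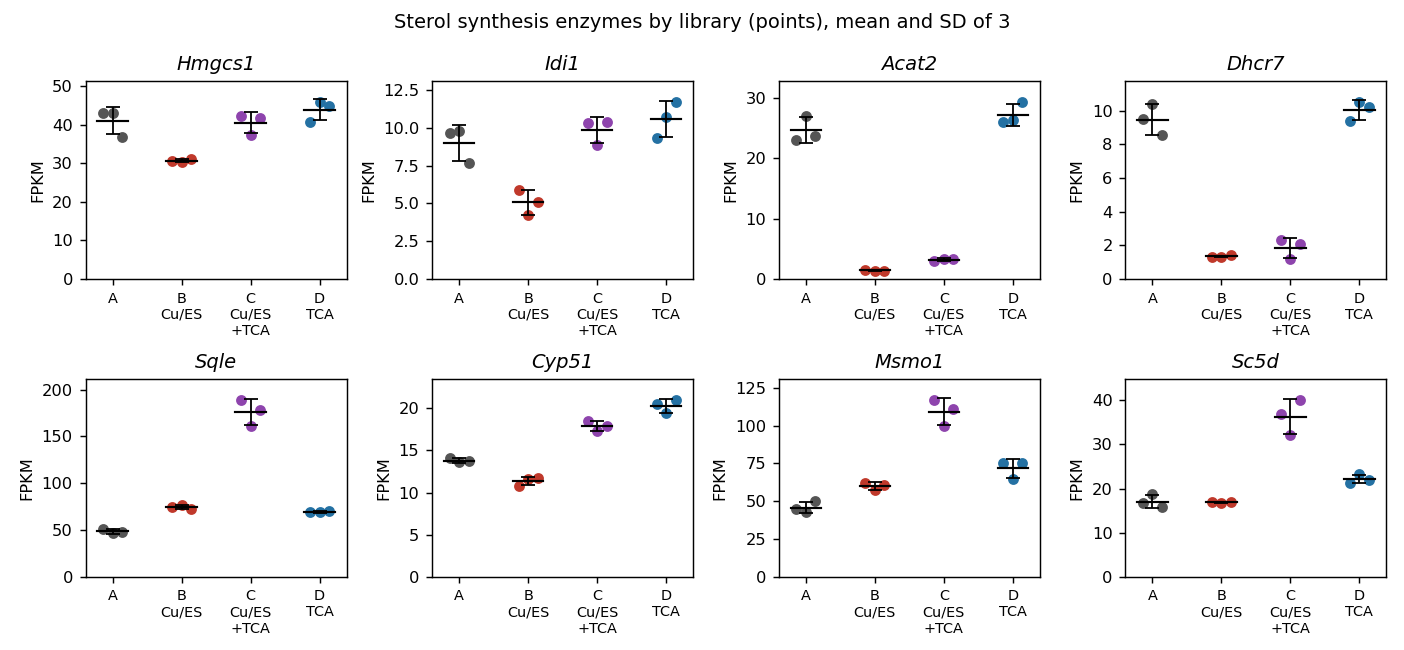
FPKM (vertical axis, from 0) of 8 sterol enzymes in each library (points), with the mean and SD of the 3 libraries of groups A, B (Cu/ES), C (Cu/ES and TCA) and D (TCA). Acat2 and Dhcr7 are near 0 in groups B and C, Sqle, Msmo1 and Sc5d are highest in group C, and Hmgcs1, Idi1 and Cyp51 dip in group B in FPKM, though not after median-ratio scaling.

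The spread within the late pathway was wide within each library. The ratio of Sqle to Dhcr7 was 5.13 ± 0.611 in group A, against 55.5 ± 3.21 in group B, and that of Msmo1 to Nsdhl was 4.68 ± 0.653 and 35.2 ± 7.10. Neither ratio overlapped between these groups, but each pair joins a gene called higher in FPKM with a gene called lower. The pairs for these and the other ratios were picked with earlier results of these data known. Their separation is therefore a description and not a test.

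Genes of SREBP control were split. Srebf1 had 41.9, 49.2 and 43.8 FPKM in group A, against 3.38, 3.22 and 3.83 in group B. Its log2 fold change was -3.36 ± 0.09 (limma, adjusted p = 1.89e-13), and it was called lower in all 5 scalings. Srebf2 had 88.0, 80.2 and 88.3 FPKM in group A, against 47.2, 46.7 and 46.0 in group B. It was lower in FPKM (-0.86 ± 0.07, limma, adjusted p = 3.32e-08) and higher after median-ratio scaling (0.46, adjusted p = 1.34e-05). The ratio of Srebf1 to Srebf2 was 0.529 ± 0.0743 in group A, against 0.0746 ± 0.00752 in group B, with no overlap.

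Insig1 and Insig2, which encode the 2 retention proteins, moved in opposite directions. Insig1 had 34.5, 46.2 and 34.2 FPKM in group A, against 70.6, 77.7 and 69.8 in group B, a rise of 0.92 ± 0.12 on the log2 scale (limma, adjusted p = 6.34e-06). Insig2 had 9.53, 9.53 and 10.1 FPKM in group A, against 2.24, 2.18 and 2.99 in group B (log2 fold change -1.64 ± 0.11, limma, adjusted p = 2.09e-09). Both directions were called in all 5 scalings. The ratio of Insig1 to Insig2 was 3.95 ± 0.789 in group A, against 30.1 ± 6.23 in group B. Scap ranged from 8.47 to 8.86 FPKM in group A and from 1.54 to 2.05 in group B (-1.84 ± 0.10), although 13.2% of its exon bases lie opposite another gene model. Stard4, which moves cholesterol between membranes, ranged from 15.5 to 16.8 FPKM in group A and from 2.86 to 3.14 in group B (-2.10 ± 0.08). Both were lower in all 5 scalings.

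**Figure D4:**
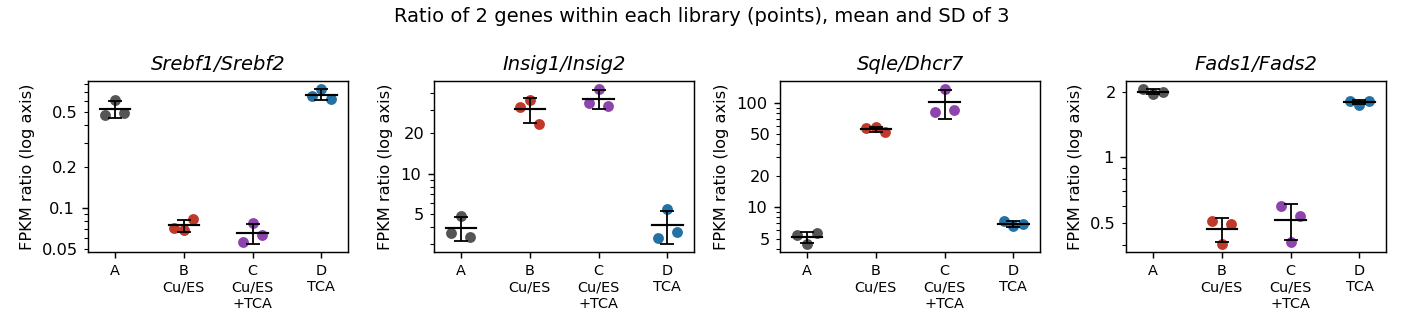
FPKM ratio of 2 genes within each library (vertical axis, log scale) for Srebf1 to Srebf2, Insig1 to Insig2, Sqle to Dhcr7 and Fads1 to Fads2, as points with the mean and SD of 3 libraries by group. In each panel groups B and C lie apart from groups A and D, below them for Srebf1 to Srebf2 and Fads1 to Fads2 and above them for the other 2.

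Of the fatty acid genes, 9 of 9 were called lower in FPKM in B vs. A, with a median of -1.40. This compares with 72.0% of all genes tested and a median of -1.10, and the list median after median-ratio scaling was -0.29. Scd2, a stearoyl-CoA desaturase that makes monounsaturated chains, had the highest level of the 37 genes in group A, with 335, 335 and 342 FPKM in group A, against 76.8, 72.7 and 69.5 in group B. It fell by 2.19 ± 0.11 on the log2 scale (limma, adjusted p = 7.23e-11), and Scd1, its close relative, fell by 2.34 ± 0.10 (log2 fold change -2.34). Fads1, the delta-5 desaturase of polyunsaturated chains, had 62.2, 61.7 and 61.7 FPKM in group A, against 9.45, 8.97 and 8.57 in group B (log2 fold change -2.65 ± 0.07, limma, adjusted p = 3.55e-13). Elovl6, which lengthens saturated chains, changed by -1.82 ± 0.11. These 4 genes were lower in all 5 scalings.

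Fads2, the delta-6 desaturase upstream of Fads1, had 30.3, 31.8 and 30.8 FPKM in group A, against 18.5, 22.3 and 17.2 in group B. It was lower in FPKM (-0.66 ± 0.09, limma, adjusted p = 4.10e-06) and higher after median-ratio scaling (0.63, adjusted p = 2.88e-05). The ratio of Fads1 to Fads2 was 2.0 ± 0.058 in group A, against 0.470 ± 0.0587 in group B, with no overlap. Acly, which makes cytosolic acetyl-CoA, and Fasn, the fatty acid synthase, were lower in FPKM (-0.85 ± 0.08 and -0.62 ± 0.11) and higher after median-ratio scaling (0.45 and 0.68). Acaca, acetyl-CoA carboxylase, was at -1.40 ± 0.10 in FPKM and did not pass after quantile normalization (-0.04, adjusted p = 0.720). Of its 100-base stretches, 42.8% are shared with the gene model Gm5182. Elovl5, which lengthens polyunsaturated chains, was at -1.21 ± 0.07 in FPKM and at 0.07 after median-ratio scaling (adjusted p = 0.353).

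The efflux genes were expressed at low levels. Abca1, the transporter that loads apolipoprotein A-I with cholesterol, had 0.964, 1.91 and 0.819 FPKM without treatment, 0.0393, 0.0300 and 0.0187 with Cu/ES, 0.00988, 0.0137 and 0.0416 with Cu/ES and TCA and 1.13, 2.21 and 1.02 with TCA. These values correspond to 334 to 774 recovered reads, 6 to 13 reads, 3 to 14 reads and 422 to 910 reads, in the same order. Groups B and C lay below every library of groups A and D, and library 2 was the highest in groups A and D. Abcg1, which exports cholesterol to lipoprotein particles, had 1.99, 2.42 and 2.17 FPKM in group A, against 0.108, 0.0752 and 0.207 in group B. Its log2 fold change (-1.50 ± 0.09 in B vs. A) is a description only, because the gene passed the filter through groups A and D. Nr1h3, which encodes LXR alpha, was at 0.0115 to 0.283 FPKM in all libraries (1 to 20 reads). Nr1h2, which encodes LXR beta, had 23.3, 23.8 and 25.6 FPKM in group A, against 12.1, 11.5 and 12.8 in group B. It was lower in FPKM (-0.95 ± 0.07, limma, adjusted p = 7.98e-09) and higher after median-ratio scaling (0.32, adjusted p = 5.81e-04).

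The second comparison asked what TCA added in the presence of Cu/ES (group C vs. B). In FPKM, 20 of the 35 genes were called higher, 4 were called lower and 11 did not pass, with a median log2 fold change of 0.39. Over all genes tested, 20.4% were called higher and 23.6% lower, with a median of -0.03. The 18 sterol enzymes had 13 higher and 1 lower with a median of 0.47, the 9 fatty acid genes had 3 higher and 3 lower with a median of 0.01, and of the 2 tested efflux genes Nr1h2 was higher and Abcg1, with 8 to 37 reads in these 6 libraries, was too low for its test to be informative. Without the libraries numbered 2, 22 genes were higher and 4 lower. Here 18 genes were higher and 4 lower in all 5 scalings, and no gene changed direction between scalings.

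Sqle rose the most. It had 74.5, 76.4 and 72.5 FPKM in group B and 189, 161 and 178 in group C, a log2 fold change of 1.23 ± 0.07 (limma, adjusted p = 1.42e-07). Sc5d rose from 16.9, 16.7 and 17.0 FPKM to 36.8, 32.1 and 40.1 (1.06 ± 0.08, limma, adjusted p = 1.44e-06). These were the 2 sterol enzymes with a log2 fold change above 1. Msmo1 rose to 117, 100 and 111 FPKM (0.85 ± 0.08), and Idi1 from 5.87, 4.24 and 5.08 FPKM to 10.3, 8.85 and 10.4 (0.85 ± 0.12). Acat2 rose by 0.78 ± 0.08, yet at 2.90, 3.26 and 3.34 FPKM it stayed far below its group A values.

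Rises were also called for Mvd (0.84 ± 0.13), Nsdhl (0.66 ± 0.10), Cyp51 (0.62 ± 0.06), Fdps (0.47 ± 0.08), Lss (0.47 ± 0.09), Hmgcs1 (0.39 ± 0.08), Tm7sf2 (0.35 ± 0.13) and Fdft1 (0.34 ± 0.09). Fdft1 did not pass when the compared groups were fitted alone (adjusted p = 0.0590). Tm7sf2 was at the edge (limma, adjusted p = 0.0452). It did not pass with the replicate number as a block (adjusted p = 0.0562) or without any 1 of A1, A2, B1, B3, C1, C2, C3 and D3 (adjusted p up to 0.164). Mvk (0.02, 95% interval -0.20 to 0.25), Pmvk (0.20, -0.01 to 0.41), Hsd17b7 (0.17, -0.06 to 0.40) and Dhcr7 (0.27, -0.01 to 0.55) did not pass. Dhcr7 had 2.31, 1.19 and 2.10 FPKM in group C, with C2 below all of group B, and it passed without the libraries numbered 2 (0.44, adjusted p = 2.38e-03).

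Ebp went the other way. It had 9.30, 9.04 and 9.64 FPKM in group B and 5.46, 5.52 and 4.05 in group C, a log2 fold change of -0.79 ± 0.10 (limma, adjusted p = 2.99e-05). It was the only sterol enzyme called lower in C vs. B, and in all 5 scalings.

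Among the regulators, Srebf2 rose from 47.2, 46.7 and 46.0 FPKM to 68.4, 56.2 and 62.4 (0.41 ± 0.07, limma, adjusted p = 5.19e-04). Insig1 rose from 70.6, 77.7 and 69.8 FPKM to 95.5, 95.2 and 96.4 (0.39 ± 0.12, limma, adjusted p = 0.0202), a call that was lost without B1, B3 or C3 (adjusted p up to 0.0647), after quantile normalization (adjusted p = 0.0714) and with no filter on low values (adjusted p = 0.0740). Srebf1 stayed at 3.84, 4.34 and 3.95 FPKM and did not pass in FPKM (0.17, 95% interval -0.01 to 0.36). Insig2 (0.09, -0.14 to 0.33) and Scap (-0.11, -0.32 to 0.10) did not pass. Stard4 rose from 2.86, 3.10 and 3.14 FPKM to 6.09, 5.24 and 5.39 (0.70 ± 0.08). Nr1h2 rose from 12.1, 11.5 and 12.8 FPKM to 19.4, 18.4 and 20.6 (0.65 ± 0.07, limma, adjusted p = 1.21e-05).

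**Figure D5:**
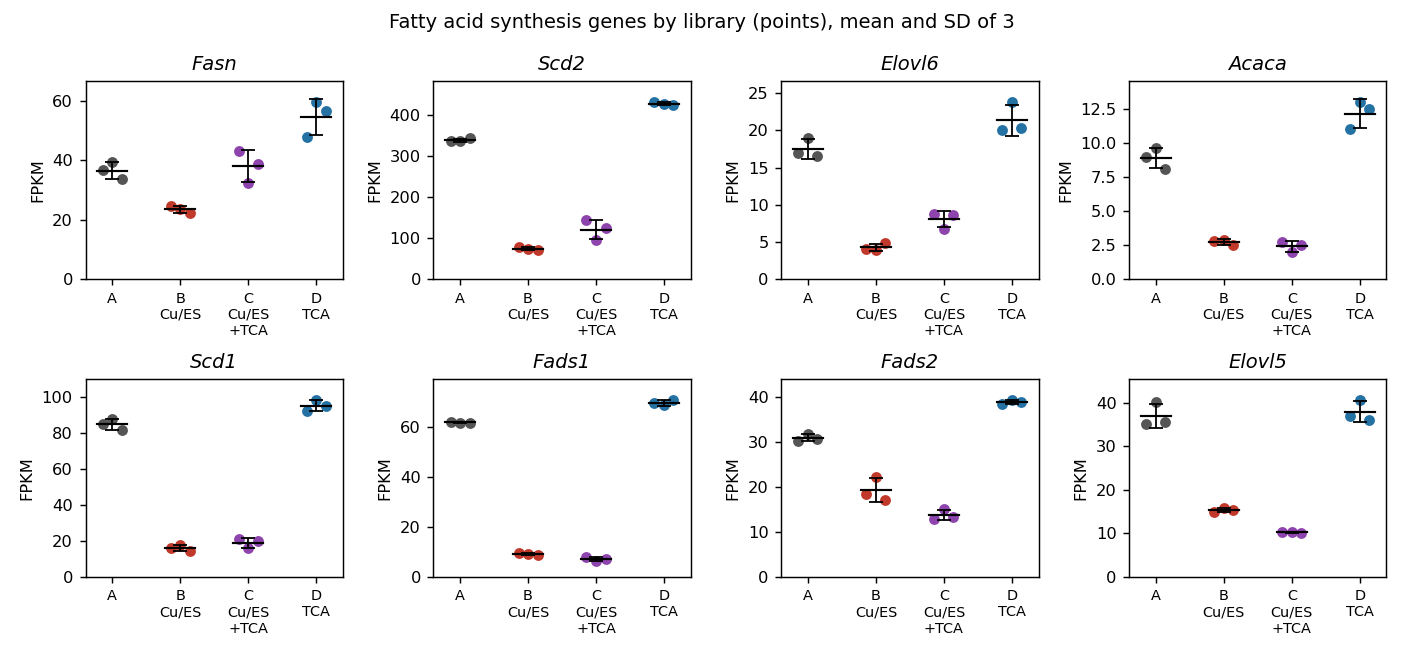
FPKM (vertical axis, from 0) of 8 fatty acid synthesis genes in each library (points), with the mean and SD of the 3 libraries of each group. Fasn, Scd2 and Elovl6 are higher in group C than in group B, Elovl5, Fads1 and Fads2 are lower, and the group D means lie above those of group A.

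Of the fatty acid genes, Elovl6 (0.78 ± 0.11), Scd2 (0.70 ± 0.11) and Fasn (0.66 ± 0.11) rose in C vs. B. Scd2 had 143, 94.9 and 123 FPKM in group C, so its libraries varied widely, with C2 the lowest, yet all lay above group B. Fasn had 24.5, 23.7 and 22.2 FPKM in group B and 43.1, 32.2 and 38.8 in group C. Elovl5 (-0.54 ± 0.07), Fads2 (-0.46 ± 0.09) and Fads1 (-0.32 ± 0.07), which desaturate or lengthen polyunsaturated chains, fell. Elovl5 had 14.8, 15.8 and 15.4 FPKM in group B and 10.3, 10.2 and 10.1 in group C, with no overlap (limma, adjusted p = 4.42e-05). Acly (0.01, 95% interval -0.17 to 0.19), Acaca (-0.14, -0.36 to 0.08) and Scd1 (0.22, 0.02 to 0.43, limma, adjusted p = 0.0738) did not pass. The ratio of Scd1 to Scd2 was 0.220 ± 0.0186 in group B and 0.159 ± 0.0104 in group C, with no overlap.

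The third comparison asked what TCA did without copper (group D vs. A). In FPKM, 11 of the 35 genes were called higher, 0 were called lower and 24 did not pass, with a median log2 fold change of 0.17. At an unadjusted p under 0.05, 14 genes passed, each with a positive change, as did 3802 of the 10615 genes tested in either direction. Over all genes tested, 10.5% were called higher and 11.5% lower, with a median of -0.01. With limma-voom, 0 of the genes were called lower as well. The 11 fell to 7 without library A1, A3 or D3, were 12 without the libraries numbered 2, and 9 of them were called in all 5 scalings.

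Among the sterol enzymes, 6 of 18 rose, with a median of 0.18, against 10.5% of all genes and a median of -0.01. Msmo1 had 75.4, 64.4 and 75.4 FPKM in group D, all above the 42.5 to 49.8 of group A (0.64 ± 0.08, limma, adjusted p = 2.92e-04). Sqle had 69.1, 68.8 and 70.4 FPKM (0.52 ± 0.07, limma, adjusted p = 2.38e-04), and Cyp51 had 20.5, 19.4 and 21.0 FPKM (0.52 ± 0.06, limma, adjusted p = 1.94e-04). Sc5d (0.36 ± 0.08), Hsd17b7 (0.37 ± 0.11) and Fdps (0.28 ± 0.08) were the others. Hsd17b7 did not pass without A1, A3, D2 or D3 (adjusted p up to 0.0965), nor did Fdps without A1, A2, D1 or D3 (adjusted p up to 0.0983). Hmgcs1 (0.10, 95% interval -0.07 to 0.26) and Acat2 (0.14, -0.04 to 0.32) did not pass.

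Of the 9 fatty acid genes 4 rose in D vs. A, with a median of 0.28, against 10.5% of all genes and a median of -0.01. Fasn had 36.6, 39.3 and 33.8 FPKM in group A, against 47.9, 59.6 and 56.5 in group D (0.56 ± 0.11, limma, adjusted p = 2.53e-03). Acaca (0.41 ± 0.10), Scd2 (0.34 ± 0.11) and Fads2 (0.32 ± 0.09) rose. These 3 were less firm. Scd2 did not pass without any 1 of the libraries of groups A and D (adjusted p up to 0.101) or with no filter on low values (adjusted p = 0.119), Fads2 did not pass without A1, A3 or D3 (adjusted p up to 0.0613), and Acaca did not pass without A3 (adjusted p = 0.0542). Srebf1 rose from 41.9, 49.2 and 43.8 FPKM to 55.6, 63.9 and 56.4 (0.37 ± 0.09, limma, adjusted p = 7.67e-03), while Srebf2 did not pass (0.03, 95% interval -0.13 to 0.19). Insig1 (-0.02, -0.29 to 0.25), Abcg1 (0.09, -0.12 to 0.29) and Nr1h2 (-0.10, -0.25 to 0.05) did not pass either.

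The effect of TCA with Cu/ES was then set against its effect without Cu/ES, as C vs. B minus D vs. A. It was higher with Cu/ES for 12 of the 35 genes and lower for 5, with 18 not passing and a median difference of 0.22. Over all genes tested, 17.7% were higher and 19.8% lower, with a median of 0.00. Without the libraries numbered 2, 14 genes were higher and 6 lower. The 18 sterol enzymes had 8 higher and 1 lower, with a median of 0.31, and the 9 fatty acid genes had 1 higher and 4 lower, with a median of -0.15. The genes higher in all 5 scalings were Acat2, Idi1, Sqle, Lss, Nsdhl, Sc5d, Stard4, Srebf2 and Nr1h2, and those lower in all 5 were Ebp, Elovl5, Fads1 and Fads2.

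Among these, Stard4 changed by 0.70 with Cu/ES and by -0.04 without it, a difference of 0.74 ± 0.11 (limma, adjusted p = 2.65e-04). Nr1h2 changed by 0.65 and by -0.10, a difference of 0.74 ± 0.10 (limma, adjusted p = 1.36e-04). Sqle rose in both settings, by 1.23 and by 0.52, a difference of 0.71 ± 0.09 (limma, adjusted p = 1.10e-04). Fads2 fell with Cu/ES (-0.46) and rose without it (0.32), a difference of -0.78 ± 0.12 (limma, adjusted p = 3.50e-04). Ebp fell with Cu/ES (-0.79) and was at -0.07 without it, a difference of -0.72 ± 0.14 (limma, adjusted p = 1.33e-03). The differences of Msmo1 (0.22, 95% interval -0.04 to 0.47), Cyp51 (0.09, -0.10 to 0.29) and Fasn (0.10, -0.22 to 0.42) did not pass.

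The effect of Cu/ES in the presence of TCA (group C vs. D) could be compared with B vs. A, since these comparisons share no library. Both came from the same fit, with a shared estimate of the spread and a shared filter, so their calls are not fully independent. In C vs. D, 28 of the 35 genes were lower and 4 were higher in FPKM, with a median of -1.28, against 71.5% lower and 20.9% higher over all genes and a median of -1.13. With the fold required, 23 were lower and 2 higher, against 53.3% and 11.2%. Without the libraries numbered 2, 28 were lower and 4 higher, and with the fold required, 22 and 2. In both comparisons 28 genes were lower and 3 were higher, and 0 were called in opposite directions. The call was the same for 88.6% of these genes and for 85.6% of all genes tested. Sqle (1.33 ± 0.07), Insig1 (1.33 ± 0.12), Sc5d (0.69 ± 0.08) and Msmo1 (0.60 ± 0.08) were higher in group C than in group D in all 5 scalings. As in B vs. A, 10 genes were called in opposite directions by different scalings, among them Hmgcs1, Idi1, Cyp51, Srebf2, Acly, Fasn and Nr1h2.

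A wider list of 30 other genes of sterol and fatty acid metabolism, 26 of them tested, gave the setting. In FPKM, and to be read against the shares of all genes given above (in B vs. A 20.1% higher and 72.0% lower, in C vs. D 20.9% and 71.5%), 4 were higher and 19 lower in B vs. A, 7 higher and 5 lower in C vs. B, 8 higher and 1 lower in D vs. A, and 4 higher and 19 lower in C vs. D, with 1 higher and 7 lower for the difference between the effects of TCA. Mbtps1, the protease that makes the first cut in SREBPs, had 53.9, 58.3 and 52.4 FPKM without treatment, 2.69, 2.53 and 2.37 with Cu/ES, 2.77, 2.57 and 2.72 with Cu/ES and TCA and 53.3, 60.0 and 53.6 with TCA (B vs. A -3.98 ± 0.07, C vs. D -3.94 ± 0.07). Acss2, which makes acetyl-CoA from acetate, fell in B vs. A (-3.16 ± 0.11), and Slc25a1, the mitochondrial citrate carrier, fell in C vs. D (-3.22 ± 0.10). Tecr (-0.83 ± 0.10) and Hacd3 (-0.78 ± 0.07), enzymes of very long chain elongation, fell in C vs. B. The difference between the effects of TCA was 1.03 ± 0.21 for Lpin1, a phosphatidate phosphatase, and -0.82 ± 0.09 for Hacd3.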

How the data were processed

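The study measured polyadenylated RNA of AML12 cells in 4 groups of 3 libraries, prepared with the VAHTS Universal V6 kit and sequenced on an Illumina NovaSeq instrument. Values were FPKM as the authors deposited them, that is, fragment numbers corrected for the length of the gene and the size of the library, in 1 column per replicate. The submitters' processing notes name fastp, HISAT2, HTSeq and GRCm39, with versions not given in the sources used here, and the study tested differential expression with DESeq2. No deposited fold change or p-value was used.

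Log2(FPKM + 1) was fitted, for the 10615 genes whose mean over the libraries reached 1 FPKM, with limma 3.58.1 in R 4.3.3, with 1 term per group over 12 libraries, empirical Bayes moderation, a mean-variance trend and 8 residual degrees of freedom. P-values were two-sided and adjusted over all genes tested by the Benjamini-Hochberg method. A gene was called at an adjusted p under 0.05, and for B vs. A and C vs. D also with an absolute log2 fold change above 1. Fold changes understate the change of low genes because of the pseudocount of 1. A 95% interval is from the same fit.

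Whole reads were recovered from the steps between FPKM values. Of 22212 genes above 0 in at least 2 libraries, 22210 were whole within 0.02 reads, and 96.2 to 98.1% of each recovered total lay in the table. Library totals, per library, were 38298857 to 39108519 reads in group A, 30773752 to 32002324 in group B, 29115011 to 34912748 in group C and 39444420 to 39782142 in group D. Reads limit the precision by counting error only.

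Replicate numbers come from the sample titles, and the study states no pairing. Deviations from the group means of same-numbered libraries correlated over genes with r of 0.173, 0.174 and 0.142 between groups A and B, which meets the rule for pairing (every r over 0.1), while the pairs of the other comparisons did not all exceed 0.1. The main fit carried no block in any comparison, and the replicate block was an alternative. The 37 genes, the gene lists and the tests were chosen with earlier results of these data known. All 37 genes are named. Of the 30 other pathway genes, the 2 called genes with the largest change in each comparison are named, except in D vs. A, where they are not reported here. Alternatives were 4 other scalings, a pseudocount of 0.1, no filter or a mean FPKM of at least 5, a replicate block, a fit without the trend, fits of the compared groups alone and the omission of each library in turn. Leaving out every library numbered 2 was added after the data were seen. Scripts were tested on simulated data. Promoters came from RefSeq for GRCm38.p6 by symbol, and shared stretches of 100 bases from GENCODE transcripts. Tables used Python 3.11.15, scipy 1.17.1, numpy 2.4.6 and pandas 2.3.3, and plots used matplotlib 3.10.9.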

Additional observations from a re-analysis of the deposited data

Results flagged for a closer look

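For 17 of the genes the effect of TCA differed between cells with and without Cu/ES by a test of that difference (limma, adjusted p under 0.05), which is what brought them here. The difference in log2 fold change, with Cu/ES minus without, was 0.74 for Stard4, 0.74 for Nr1h2, 0.71 for Sqle, 0.69 for Sc5d, 0.64 for Acat2, 0.64 for Idi1, 0.56 for Mvd, 0.52 for Lss, 0.50 for Elovl6, 0.45 for Nsdhl, 0.38 for Srebf2 and 0.29 for Hmgcs1. It was -0.78 for Fads2, -0.72 for Ebp, -0.58 for Elovl5, -0.55 for Acaca and -0.49 for Fads1. Hmgcs1 was at the edge (adjusted p = 0.0496) and was lost without any 1 of A1, A2, B1, B2, B3, C1, C3, D1 and D3 (adjusted p up to 0.123), and in TPM (adjusted p = 0.0525) and after quantile normalization (adjusted p = 0.107) among other alternatives. Mvd was lost without A3, B1, C1 or D2 (adjusted p up to 0.0740), after quantile normalization (adjusted p = 0.0877), with no filter (adjusted p = 0.0804) and without the libraries numbered 2 (adjusted p = 0.0803). Elovl6 was lost after quantile normalization (adjusted p = 0.0982) and with no filter (adjusted p = 0.0520). Acaca was lost in TPM, at the edge, where its adjusted p rounded to 0.05.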

How the results depend on the processing

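In B vs. A, the scaling of the libraries set how many genes were called. Median-ratio scaling gave 14 higher and 19 lower, limma-voom 14 and 19, and quantile normalization 8 and 20. Over all genes tested, these scalings gave 4670 and 4654, 4369 and 4972, and 4262 and 4832. For the 35 genes with the fold required, they gave 5 higher and 6 lower, 5 and 13, and 2 and 6. In C vs. D they gave 14 higher and 14 lower, 12 and 16, and 11 and 19. Over all genes tested these were 4709 and 4704, 4378 and 5064, and 4202 and 4893. With the fold required, C vs. D had 9 and 6, 8 and 9, and 5 and 7 of the 35 genes. Shares of all genes with the fold required were taken in FPKM only. For B vs. A after median-ratio scaling, TPM and quantile normalization, the median log2 fold change was -0.29, -1.89 and -0.37 for the 35 genes, -0.10, -1.74 and -0.03 for the sterol enzymes and -0.29, -1.89 and -0.60 for the fatty acid genes. For C vs. B it was 0.46 and 0.47 in the first 2 of these for the 35 genes, and 0.55, 0.57 and 0.42 for the sterol enzymes.

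Among genes called in FPKM or under the alternative, the direction in B vs. A reversed for 12, in each case from a negative value in FPKM (for Sc5d -0.01) to a positive one. Hsd17b7, called in neither, went from 0.19 in FPKM to -0.08 in TPM. After median-ratio scaling the log2 fold change was 0.90 for Hmgcs1, 0.44 for Idi1, 0.10 for Fdps, 0.97 for Cyp51, 0.78 for Ebp, 1.25 for Sc5d, 0.46 for Srebf2, 0.45 for Acly, 0.68 for Fasn, 0.07 for Elovl5, 0.63 for Fads2 and 0.32 for Nr1h2. With limma-voom it was 0.78 for Hmgcs1, 0.36 for Idi1, 0.91 for Cyp51, 0.71 for Ebp, 1.19 for Sc5d, 0.32 for Srebf2, 0.32 for Acly, 0.56 for Fasn, 0.51 for Fads2 and 0.19 for Nr1h2. After quantile normalization it was 0.02 for Hmgcs1, 0.56 for Idi1, 0.77 for Cyp51, 0.65 for Ebp and 0.88 for Sc5d. Among genes called in FPKM or under the alternative, none reversed in C vs. B, D vs. A or the difference between the effects of TCA.

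Leaving out 1 library gave 7 to 14 higher in D vs. A, 3 to 4 higher and 30 lower in B vs. A, 18 to 22 higher and 4 lower in C vs. B, 10 to 16 higher and 5 to 6 lower for the difference between the effects of TCA, and, in B vs. A with the fold required, 0 to 1 higher. Without every library numbered 2, 1 gene was higher in B vs. A past both thresholds. With the replicate block, Tm7sf2 lost its call in C vs. B (adjusted p = 0.0562), and for the difference between the effects of TCA Hmgcs1 lost it (adjusted p = 0.0611) and Fdft1, Insig1 and Scap gained one. The block changed no other call of the genes in B vs. A, C vs. B, D vs. A or that difference. Same-numbered pairs had r of 0.277, 0.243 and 0.005 in C vs. B and of -0.171, -0.067 and 0.110 in C vs. D. In D vs. A they had 0.087, 0.579 and 0.302, against -0.510 to 0.367 for pairs of different number. Outside B vs. A not all same-numbered pairs exceeded 0.1, yet the highest r of all pairs (0.579, A2 with D2) was among them. The library numbered 2 also stood apart in every group. Whether the numbers mark a pairing or are only names was not tested. For single genes in C vs. D, only the 5 scalings are given. Other alternatives for them, and alternatives for the medians of C vs. D and of the difference, are not reported here. Apart from the number of libraries and the scaling, by which these alternatives are built, the cause of these changes was not tested. With 3 libraries a group and FPKM in place of counts, small changes of genes near 1 FPKM are the least certain.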
